A study of Mus musculus with 10 samples.

Results

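The pore-forming and auxiliary subunits of voltage-gated and related cation channels were followed in striatal RNA of a mouse model of Huntington's disease. Members were taken by gene name: every row of the expression table whose symbol starts with Kcn, Scn and a digit, Cacna, Cacnb or Cacng, without Cacna1a and without names ending in os or ot1. This gave 123 of the 21230 genes in the table, of which 121 are annotated as protein-coding, and Kcnmb4os1 and Kcnmb4os2 are annotated as antisense transcripts. The rule reads names and no measured value.

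All 10 libraries came from heterozygous BACHD mice on the FVB/N background. These mice carry a full-length human mutant HTT gene with 97 mixed CAA and CAG repeats, driven by its own human regulatory sequence, beside their own Htt genes. Of these mice, 5 received SPI-24, a small molecule, and 5 received the DMSO-PEG400 vehicle (called DMSO). Both were delivered for 8 weeks by an osmotic pump under the skin, filled with 80 mM SPI-24 or with vehicle and replaced after 28 days. Treatment began at 3 months of age and males and females were used. Small punches of striatum were sequenced, and each library is labelled as its own biological replicate, so p-values measure the spread between mice and their punches. No wild-type or untreated library was in the comparison, so the levels in DMSO libraries are those of mutant mice.

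As background, voltage-gated sodium channels start the action potential, calcium channels couple it to transmitter release and to signalling in the cell, and potassium channels end it and set the resting potential. Each is built from a pore-forming alpha subunit with auxiliary subunits that set its gating and its number at the membrane. Medium spiny neurons, the projection neurons of the striatum, are held at a very negative resting potential by inwardly rectifying potassium channels, and neurons, astrocytes, vessels and choroid plexus each use their own members of these families.

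The libraries held 7381308 to 29559866 reads assigned to genes in SPI-24 mice and 5478283 to 46923225 in DMSO mice. Values below are read counts divided by a size factor of each library, called normalized counts. The row named HTT, which has no mouse identifier, held 841 to 2520 normalized counts and was above 0 in all 10 libraries. The libraries differed in the level of cell type markers. The level of a library on a marker list is the mean over the list's genes of log2(normalized count + 1), centred over the 10 libraries. On 15 medium spiny neuron markers it was -1.68, 1.57, -1.30, -1.87 and 3.21 in the SPI-24 libraries, against 3.12, -0.88, -3.10, 1.98 and -1.04 in the DMSO libraries. Drd1, the D1 dopamine receptor that defines one class of these neurons, had 15.7, 537, 15.1, 19.2 and 2525 in the SPI-24 libraries, against 2129, 78.8, 0, 668 and 40.7 in the DMSO libraries. It was at 0 in DMSO replicate 3 and under 20 in 3 SPI-24 libraries, although all punches are labelled striatum. The study names 2 sequencing sites for its RNA libraries as a whole, and the labels do not say which site or sites these 10 used. On 8 thalamic markers the level was lowest in DMSO replicate 1 (-4.01) and next lowest in DMSO replicate 5 (-1.17) and SPI-24 replicate 5 (-1.08). SPI-24 replicate 5 and DMSO replicate 1 thus stood apart as the libraries richest in medium spiny neuron transcripts, 1 in each group.

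The comparison of SPI-24 with DMSO mice asked whether 8 weeks of treatment changed channel transcripts. No channel gene passed the test. Of the 123 members, 114 had a mean of at least 10 normalized counts and were tested, and 0 had a limma adjusted p under 0.05, as did 0 of all 15871 genes tested (0%). edgeR and DESeq2 on the recovered reads also called 0 members. At an unadjusted p under 0.05 there were 3 members, Cacng7 and Kcnab2 higher and Kcnh2 lower in SPI-24 mice, which is 2.63% of the members tested against 2.23% of all genes. The share of members is near that of all genes. That count was 0 by edgeR with TMM scaling, 1 by edgeR with the DESeq2 size factors and 4 by DESeq2. By the same 3 fits the share of all genes was 2.31%, 2.38% and 2.56%.

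The log2 fold change was above 0 for 66 of the 114 members tested (57.9%), against 50.2% of all genes, with a median of 0.14 for the members and 0.00 for all genes. Without DMSO replicate 3, the library with the fewest reads, the members' median was -0.04 and 54 were above 0, while the median of all genes was -0.08. For 30 members (26.3%) the 95% interval of the change lay within 2-fold in either direction, against 37.9% of all genes, so for the other members a 2-fold change was not excluded at this depth and spread. The SD over the 10 libraries had a median of 0.999 on the log2 scale for the members and 0.71 for all genes.

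**Figure D1:**
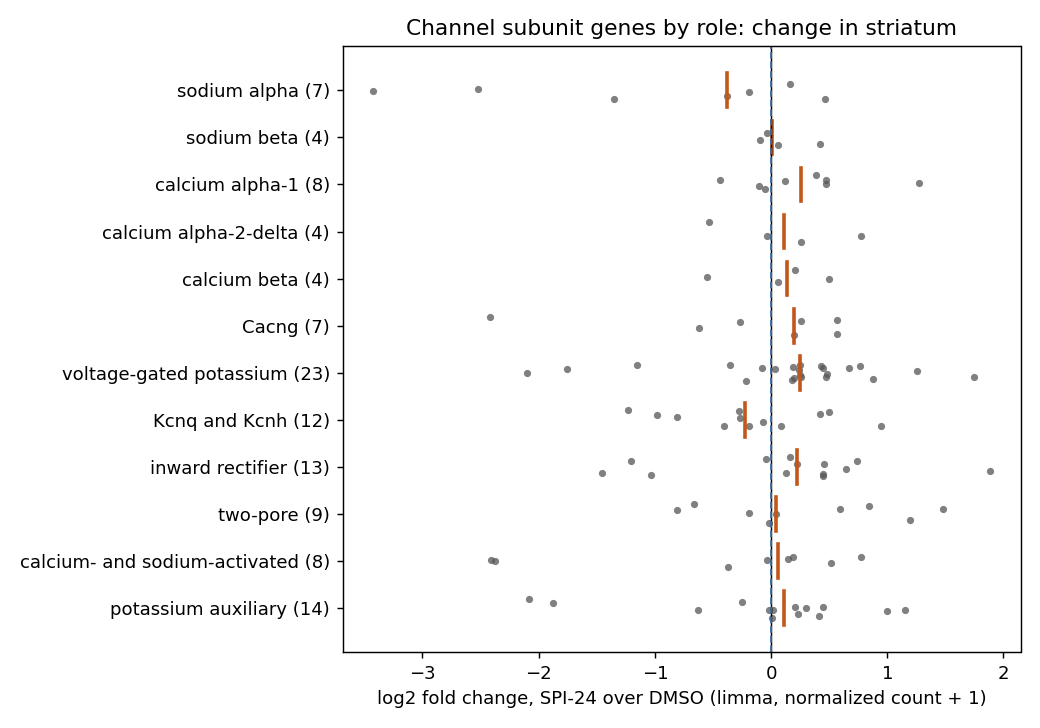
Log2 fold change of SPI-24 over DMSO on the horizontal axis for the tested members of each role class (points, number in brackets), the class median (orange line) and the median of all genes tested (dashed line at 0.00). Apart from the single antisense gene (-1.51), class medians lay between -0.38 for sodium alpha subunits and 0.26 for calcium alpha-1 subunits, and no member had an adjusted p under 0.05.

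Cacng7 encodes TARP gamma-7, one of the transmembrane proteins that carry AMPA-type glutamate receptors to the synapse, and lies at chr7:3332955-3368221 (GRCm38). It had 8288, 12918, 9607, 9286 and 7022 in the SPI-24 libraries, against 4158, 8113, 8777, 7865 and 4071 in the DMSO libraries. DMSO replicates 1 and 5 were below all other libraries, and the groups overlapped. The log2 fold change of 0.56 (SE 0.25, limma adjusted p = 0.999) had a 95% interval from 0.04 to 1.09. Leaving out 1 library at a time gave 0.41 to 0.69, and the unadjusted p was above 0.05 without SPI-24 replicate 2, 3 or 4 or DMSO replicate 1 or 5. The 2 low libraries, DMSO replicates 1 and 5, were also those with the lowest thalamic marker level (-4.01 and -1.17), whose part in the change was not tested.

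Kcnab2, at chr4:152390742-152477871, encodes a beta subunit of the Kv1 channels. It had 10891, 10433, 12916, 14659 and 9981 in the SPI-24 libraries, against 5941, 8827, 10216, 10283 and 9327 in the DMSO libraries. DMSO replicate 1 was lowest by far. Above every DMSO library lay 4 SPI-24 libraries, and the lowest SPI-24 value lay inside the range of the DMSO libraries. The log2 fold change was 0.41 (SE 0.19, limma adjusted p = 0.999). Without DMSO replicate 1 the value was 0.27, and the unadjusted p was under 0.05 only when SPI-24 replicate 2 or 5 or DMSO replicate 3 or 4 was the library left out.

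Kcnh2, at chr5:24319589-24351604, encodes the ERG1 potassium channel, known for its part in cardiac repolarisation. It had 648, 439.9, 969.9, 948 and 284 in the SPI-24 libraries, against 601, 991, 1935, 1062 and 1006 in the DMSO libraries. DMSO replicate 3 was highest and SPI-24 replicate 5 lowest, and 3 SPI-24 libraries lay inside the range of the DMSO libraries. The log2 fold change of -0.81 (SE 0.36, limma adjusted p = 0.999) was -0.54 without SPI-24 replicate 5 and -0.59 without DMSO replicate 3, and the unadjusted p stayed under 0.05 only without SPI-24 replicate 3, SPI-24 replicate 4 or DMSO replicate 1. Kcnh2 also had a slope on the medium spiny neuron level, given below.

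Scn3a, which encodes the Nav1.3 sodium channel of the embryonic and early postnatal brain, was the member whose groups did not overlap. It had 217, 0, 202, 106 and 153 in the SPI-24 libraries, against 385, 244, 615, 313 and 254 in the DMSO libraries. All SPI-24 libraries were below all DMSO libraries, as was so for 1 of 114 members, where 0.517% of all genes had groups that did not overlap. SPI-24 replicate 2 held 0 reads, which allows up to 8.30 normalized counts at a limit of 3 reads. The log2 fold change of -2.53 (SE 1.22, limma adjusted p = 0.999) became -1.05 without that library, and was -1.37 by edgeR and -1.41 by DESeq2.

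**Figure D2:**
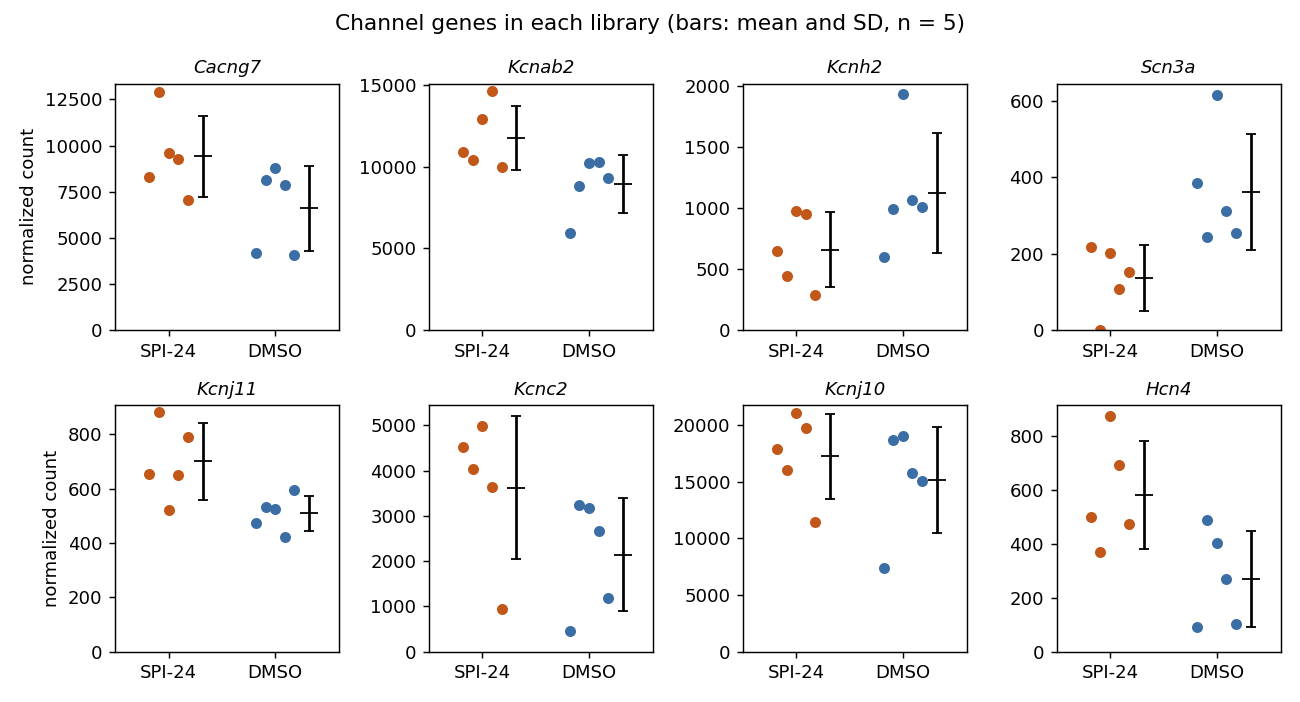
Normalized counts of 7 members and of the partner gene Hcn4 in each library (points), with the mean and SD of 5 libraries per group (bars), on axes that start at 0. The SPI-24 and DMSO libraries overlap for 7 of the 8 genes, and for Scn3a the highest SPI-24 library (217) lies below the lowest DMSO library (244).

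Sodium channel alpha subunits form the pore. Of the 8 in the table, 7 were tested, 5 with a fold change below 0 and a median of -0.38. Per kb of exon the highest were Scn1a (Nav1.1, carried largely by fast-spiking interneurons) at 218 ± 78.6 per kb in SPI-24 mice and 174 ± 87.3 per kb in DMSO mice, and Scn2a (Nav1.2) at 100.7 ± 17.8 per kb in SPI-24 mice and 138 ± 52.0 per kb in DMSO mice. Scn1a had 3218, 2703, 3099, 2012 and 1107 in the SPI-24 libraries, against 463, 1782, 2471, 3077 and 1900.0 in the DMSO libraries, lowest in DMSO replicate 1, and its log2 fold change of 0.47 (SE 0.43) was 0.01 without that library and 0.27 without SPI-24 replicate 5 as well. Scn2a spanned 958 to 1570.3 in SPI-24 libraries and 992 to 2488 in DMSO libraries, at -0.38 (SE 0.26), or -0.17 without both.

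Sodium channel beta subunits, single-pass proteins that set gating and adhesion, counted 4, all tested, 2 above 0 and with a median of 0.01. Scn4b, the beta-4 subunit abundant in striatal spiny neurons, averaged 5529 ± 5524 in SPI-24 mice and 5843 ± 5734 in DMSO mice (SD, n = 5 each), an SD as large as its mean in both groups, and is taken up with the medium spiny neuron level. Scn2b ranged from 4482 to 6165 in SPI-24 libraries and 3727 to 5759 in DMSO libraries and was the steadiest of the 114 members over the 10 libraries, with an SD of 0.22 on the log2 scale.

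Calcium channel alpha-1 subunits were led per kb by Cacna1g (Cav3.1, the T-type channel behind thalamic burst firing) and Cacna1b (Cav2.2, the N-type channel of nerve terminals). Cacna1g had 1133, 578, 2399, 1646 and 368 in the SPI-24 libraries, against 93.9, 1049.6, 1822, 1367 and 747 in the DMSO libraries. It was lowest in DMSO replicate 1 and second lowest in SPI-24 replicate 5, and its change of 0.47 (SE 0.69) was -0.25 without DMSO replicate 1. Cacna1b spanned 277 to 588 in SPI-24 libraries and 314 to 724 in DMSO libraries, at -0.11 (SE 0.31), and 0.05 without SPI-24 replicate 5. The other T-type genes were Cacna1h, highest in SPI-24 replicate 5 at 1020.3 and at -0.44 (SE 0.65), or -0.93 without that library and -0.16 without DMSO replicate 1, and Cacna1i. Cacna1i had 160.2, 404, 363, 624 and 490.5 in the SPI-24 libraries, against 857, 288, 0, 615 and 585 in the DMSO libraries, and its change of 1.27 (SE 1.43) was -0.55 without DMSO replicate 3, where it had no reads, and below 0 by edgeR and DESeq2. All 8 alpha-1 genes were tested, with 5 above 0 and a median of 0.26.

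Cacnb3 and Cacnb4, cytoplasmic beta subunits that bring the pore to the membrane, averaged 666 ± 245 per kb in SPI-24 mice and 619 ± 171 per kb in DMSO mice for Cacnb3, and 246 ± 95.1 per kb in SPI-24 mice and 214 ± 86.8 per kb in DMSO mice for Cacnb4. The log2 fold change was 0.06 (SE 0.27) for Cacnb3, with -0.04 without SPI-24 replicate 5, and 0.21 (SE 0.31) for Cacnb4, with 0.04 without DMSO replicate 1. Cacnb2 had 1053, 1309, 1096, 949 and 1204 in the SPI-24 libraries, against 357, 943, 1391, 944 and 687 in the DMSO libraries, with DMSO replicate 1 lowest and overlap between the groups, and a log2 fold change of 0.50 (SE 0.30, limma adjusted p = 0.999). Without DMSO replicate 1 the Cacnb2 change was 0.22, and 0.19 without SPI-24 replicate 5 as well. Of the alpha-2-delta subunits, which include the target of gabapentin, Cacna2d3 had 623, 836, 729, 647 and 2181 in the SPI-24 libraries, against 2136, 481, 714, 916 and 896 in the DMSO libraries. It was highest in SPI-24 replicate 5 and DMSO replicate 1, and the group difference was -0.03 (SE 0.40), -0.36 without SPI-24 replicate 5 and 0.28 without DMSO replicate 1. Cacna2d1 was 0.25 (SE 0.24), and 0.13 without DMSO replicate 1.

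The Cacng family holds muscle calcium channel subunits and the TARP proteins of AMPA receptors. Of 8 members, 7 were tested, 4 above 0 and 3 below. After Cacng7, Cacng4 was the highest per kb, at 385 ± 171 per kb in SPI-24 mice and 318 ± 75.5 per kb in DMSO mice, and its change of 0.20 (SE 0.29) was -0.02 without SPI-24 replicate 5. Cacng2, known as stargazin, spanned 960.3 to 1679 in SPI-24 libraries and 599 to 1879.9 in DMSO libraries. Cacng1 and Cacng6, the subunits known from skeletal muscle, were at or below 71.8 normalized counts in every library.

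Voltage-gated potassium channel genes (Kcna to Kcnd, and the modifying subunits Kcnf, Kcng, Kcns and Kcnv) formed the largest class, with 23 of 24 tested, 17 above 0 and a median of 0.25, and 0 at an unadjusted p under 0.05. Kcnc2 (Kv3.2, which lets fast-spiking neurons fire at high rates) was highest per kb. It had 4517, 4045, 4984, 3642 and 948 in the SPI-24 libraries, against 449.5, 3250.1, 3168, 2672 and 1196 in the DMSO libraries. SPI-24 replicate 5 and DMSO replicates 1 and 5 were the low ones, and also had the lowest thalamic marker levels (-1.08, -4.01 and -1.17). The log2 fold change of 0.88 (SE 0.54, limma adjusted p = 0.999) was 1.32 without SPI-24 replicate 5, 0.40 without DMSO replicate 1 and 0.83 without both. The part of the thalamic level in this change was not tested. Kcnd2 (Kv4.2, the A-type current of dendrites) was steadier, with 1144 to 2038 in SPI-24 libraries and 1127 to 1562 in DMSO libraries, and its change of 0.24 (SE 0.19) was 0.37 without SPI-24 replicate 5.

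Kcnq and Kcnh genes encode slowly gating channels. Of 13, 12 were tested, 8 below 0 and with a median of -0.23. Kcnh4 was among the most variable members, with 18.3, 99.6, 0, 0 and 346 in the SPI-24 libraries, against 121, 25.6, 0, 33.2 and 14.5 in the DMSO libraries, and Kcnh3 is described with the medium spiny neuron level.

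Inward rectifiers pass potassium at negative potentials. All 13 were tested, 9 above 0, with a median of 0.23. Kcnj10 (Kir4.1, which clears potassium in astrocytes) was the highest of them per kb, at 3182 ± 690.4 per kb in SPI-24 mice and 2803 ± 867 per kb in DMSO mice (SD, n = 5 each). It had 17823, 15978, 21028, 19728 and 11471 in the SPI-24 libraries, against 7389, 18635, 19041, 15713 and 15012 in the DMSO libraries, low in DMSO replicate 1 and then SPI-24 replicate 5, with a change of 0.23 (SE 0.26) that was -0.01 without DMSO replicate 1 and 0.12 without both. Kcnj9 (GIRK3, opened by G proteins) had 2397, 2623, 4027, 2906 and 933 in the SPI-24 libraries, against 442, 1798, 3435, 2713 and 1887 in the DMSO libraries. It was lowest in the same 2 libraries, and its change of 0.46 (SE 0.48) was -0.03 without DMSO replicate 1 and 0.30 without both. Kcnj11, the pore of the ATP-sensitive channel (Kir6.2), had 655, 883, 519.9, 649 and 791 in the SPI-24 libraries, against 473, 531, 523, 420.1 and 595 in the DMSO libraries, with 4 SPI-24 libraries above every DMSO library and a log2 fold change of 0.45 (SE 0.23, limma adjusted p = 0.999). Leaving out 1 library at a time kept Kcnj11 between 0.36 and 0.55.

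Two-pore channels carry the background leak. Of 12, 9 were tested, 5 above 0. Kcnk1 (TWIK-1) was highest per kb, at 1054 ± 201 per kb in SPI-24 mice and 1039.7 ± 288 per kb in DMSO mice, and its change of 0.04 (SE 0.20) was 0.11 without both SPI-24 replicate 5 and DMSO replicate 1. Kcnk3 (TASK-1, closed by acid) came next and had 636, 741, 919.6, 704 and 155 in the SPI-24 libraries, against 32.1, 506, 995, 427 and 361 in the DMSO libraries. It was far lower in DMSO replicate 1 and SPI-24 replicate 5 than in the other 8, and its change of 0.84 (SE 0.75) was 0.04 without DMSO replicate 1 and 1.29 without SPI-24 replicate 5.

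Among channels opened by calcium or sodium all 8 were tested, 4 above 0. Kcnn1 (SK1, of the afterhyperpolarisation) had 554, 753, 813, 781 and 271 in the SPI-24 libraries, against 260.4, 353, 718, 463 and 389 in the DMSO libraries, with 3 SPI-24 libraries above every DMSO library, and a change of 0.52 (SE 0.36) that was 0.80 without SPI-24 replicate 5. Kcnma1 (BK) spanned 1387 to 2061 in SPI-24 libraries and 834 to 3278 in DMSO libraries, at 0.15 (SE 0.29), and -0.11 without DMSO replicate 1. Kcnu1, known from sperm, was at 0 in 3 SPI-24 libraries and 1 DMSO library and reached at most 127.

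Potassium channel auxiliary subunits counted 14 tested of 15, 9 above 0, with a median of 0.11. After Kcnab2, Kcnip3 (KChIP3, a calcium-binding partner of Kv4 channels) was highest per kb. It had 2608, 4596, 3071, 2635 and 2574 in the SPI-24 libraries, against 3263, 2404, 2751, 2431 and 1661 in the DMSO libraries, with SPI-24 replicate 2 above all others, and a change of 0.30 (SE 0.21), or 0.47 without both SPI-24 replicate 5 and DMSO replicate 1. Kcnmb2, a beta subunit of BK channels, had 172, 0, 33.9, 69.6 and 43.5 in the SPI-24 libraries, against 40.4, 149.8, 239, 112 and 152 in the DMSO libraries, overlapping between the groups, with a log2 fold change of -2.08 (SE 1.27, limma adjusted p = 0.999). Without SPI-24 replicate 2, the library at 0, it was -0.88, and with all libraries -1.08 by edgeR and -1.10 by DESeq2. The 9 members under the mean of 10 normalized counts were Cacng6, Kcnq1, Kcnmb4os1, Kcnrg, Scn11a, Kcnk7, Kcnk5, Kcnk15 and Kcng3, none above 46.5 in any library. Kcnmb4os2 was tested, at -1.51 (SE 1.29). The kit marked strand, and the sources used here do not say whether the counting used it, so Kcnmb4 and its antisense transcripts may not be separate.

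**Figure D3:**
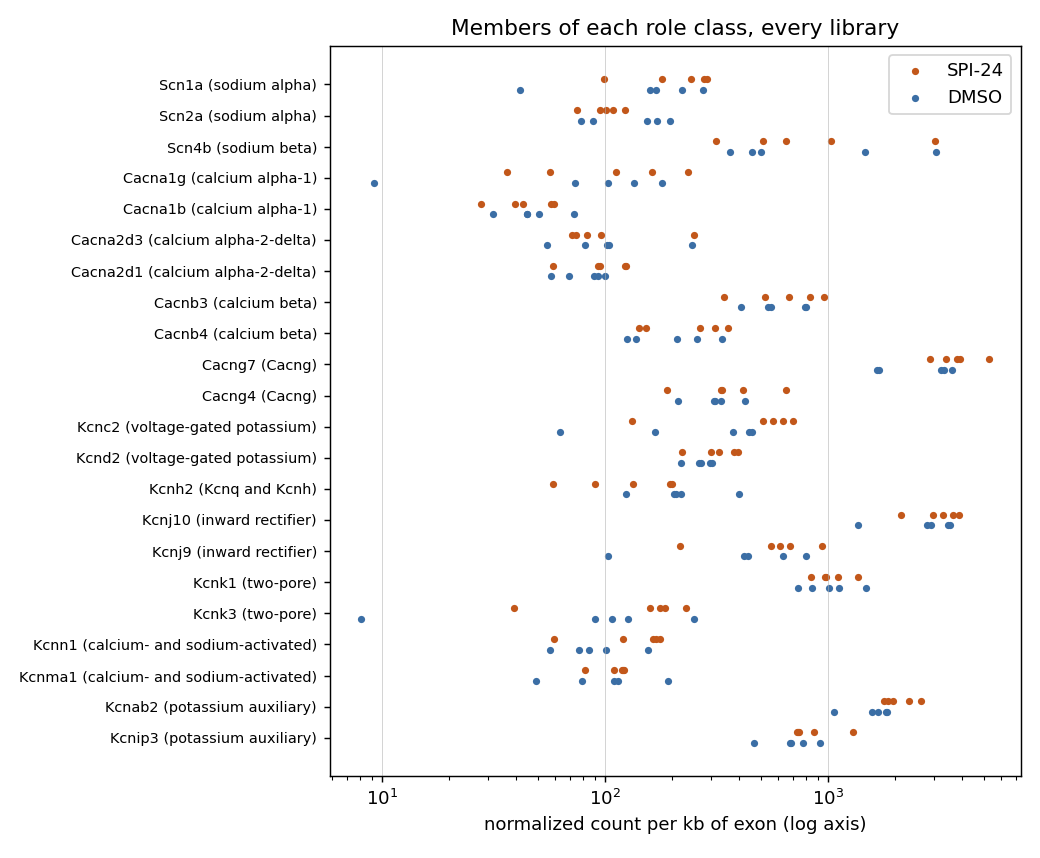
Normalized count per kb of exon, on a log axis, of 1 or 2 well expressed members of each role class in every library, SPI-24 (orange) above DMSO (blue). Cacng7, Kcnj10 and Kcnab2 lie farthest to the right by their means, and the low DMSO points of Cacna1g and Kcnk3 are DMSO replicate 1.

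Several members had a slope on the medium spiny neuron marker level. In a limma fit of every gene on the medium spiny neuron level with the group as a term, 13 of 114 members had a slope with an adjusted p under 0.05. The slope is the change in log2(normalized count + 1) per log2 unit of the marker level, and none of the markers is a member. The slope was positive for 8 members (7.02%, against 1.42% of all genes) and negative for 5 (4.39%, against 0.97% of all genes). In bulk tissue, fewer cells of a type and less RNA per cell cannot be told apart. These calls were not kept when SPI-24 replicate 5 and DMSO replicate 1, the libraries of highest marker level, were both left out. Leaving them out also narrows the range of the marker level and lowers the number of libraries. The part of each was not tested. Without both, 0 members were called, and 1 gene in all was called. In that fit 20 of the 114 members had an unadjusted p under 0.05, against 1909 of all 15871 genes. Without SPI-24 replicate 5 alone 2 members were called (Kcnab1 and Scn4b), against 0.42% of all genes. Without DMSO replicate 1 alone 3 were called (Kcnab1, Kcnh3 and Scn4b), against 0.52% of all genes. Without the 2 libraries with the fewest reads the count was 4, by edgeR 9 and by limma without trend 1. By the same 3 fits the share of all genes called was 1.44%, 1.88% and 0.40%. The choroid plexus marker level was highest in the same 4 libraries as the medium spiny neuron level, at 0.55 in SPI-24 replicate 2 and 0.92 in SPI-24 replicate 5, against 2.96 in DMSO replicate 1 and 2.73 in DMSO replicate 4, and the ependymal level was 3.19 in DMSO replicate 1 and 2.94 in DMSO replicate 4. Their part in the slopes was not tested.

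The 8 positive members were Kcna5, Kcnj4, Kcnh3, Kcnip2, Scn4b, Kcnk2, Kcnab1 and Cacna2d3. Scn4b had 2549, 5149, 3251, 1567 and 15128 in the SPI-24 libraries, against 15280.5, 1823, 2273, 7349 and 2489 in the DMSO libraries. SPI-24 replicate 5 and DMSO replicate 1 were highest, DMSO replicate 4 next, and the slope was 0.50 (SE 0.06, limma adjusted p = 0.000307). Over the 10 libraries Pearson r was 0.93 (permutation p = 0.0007, adjusted 0.00233) and Spearman rho was 0.81 (permutation p = 0.00694, adjusted 0.0177), and without the 2 libraries farthest from the median level r was 0.84. The p-values were adjusted over 10 relations, those of the members with the largest called slopes on this same level. That choice favours small p-values, so they are not separate evidence for the slopes.

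Kcnj4 encodes Kir2.3, one of the inward rectifiers that hold spiny neurons hyperpolarised. It had 98.7, 711, 20.7, 157 and 1852 in the SPI-24 libraries, against 1547, 165, 185, 1416 and 437 in the DMSO libraries. The 4 libraries of highest marker level were the 4 highest, and the slope was 0.74 (SE 0.14, limma adjusted p = 0.0101). Over the libraries Pearson r was 0.81 (permutation p = 0.0044, adjusted 0.00936) and Spearman rho was 0.81 (permutation p = 0.00708, adjusted 0.0177), with r of 0.67 without the same 2 libraries.

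Kcnip2 encodes KChIP2, the partner of Kv4 channels in striatum and heart. It had 142, 1336, 376, 1656 and 5319 in the SPI-24 libraries, against 4314, 399, 342, 2032 and 1267 in the DMSO libraries, again highest in SPI-24 replicate 5 and DMSO replicate 1, with a slope of 0.60 (SE 0.12, limma adjusted p = 0.0165). Over the libraries Pearson r was 0.80 (permutation p = 0.00582, adjusted 0.00936) and Spearman rho was 0.78 (permutation p = 0.0108, adjusted 0.018), and r was 0.59 without the 2. Kcnh3 (Kv12.2, of forebrain neurons) had 92.2, 899, 86.8, 389 and 2572 in the SPI-24 libraries, against 2029.9, 196, 88.9, 1059 and 785 in the DMSO libraries, with a slope of 0.73 (SE 0.11, limma adjusted p = 0.00305) and r of 0.88, or 0.76 without the 2. Kcna5 (Kv1.5) spanned 5.68 to 354 in SPI-24 libraries and 0 to 425 in DMSO libraries, with a slope of 1.07 (SE 0.25, limma adjusted p = 0.0356).

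Kcnab1, a Kv1 beta subunit, had 2006, 2529, 1791, 1619.6 and 5257 in the SPI-24 libraries, against 5273, 1559, 1562, 3389 and 1735 in the DMSO libraries and a slope of 0.29 (SE 0.04, limma adjusted p = 0.00134). Kcnk2 (TREK-1, a mechanically and thermally gated leak channel) had a slope of 0.39 (SE 0.07, limma adjusted p = 0.0133), and Cacna2d3 one of 0.26 (SE 0.06, limma adjusted p = 0.0421). Of the 6 members listed for spiny neurons, 4 (Scn4b, Kcnj4, Kcnip2 and Kcnab1) were called. Kcnj2 (Kir2.1) and Kcnh4 had slopes of 0.35 (SE 0.12, limma adjusted p = 0.134) and 1.17 (SE 0.32, limma adjusted p = 0.0708). Against treatment, the 6 had log2 fold changes of Scn4b -0.04 (SE 0.61), Kcnj4 -1.21 (SE 1.01), Kcnj2 0.13 (SE 0.64), Kcnip2 -0.25 (SE 0.86), Kcnab1 0.01 (SE 0.37) and Kcnh4 -0.27 (SE 1.87), none past the test. Leaving out 1 library turned the sign of all but Kcnj4, which was -1.98 without SPI-24 replicate 5 and -0.80 without DMSO replicate 1.

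**Figure D4:**
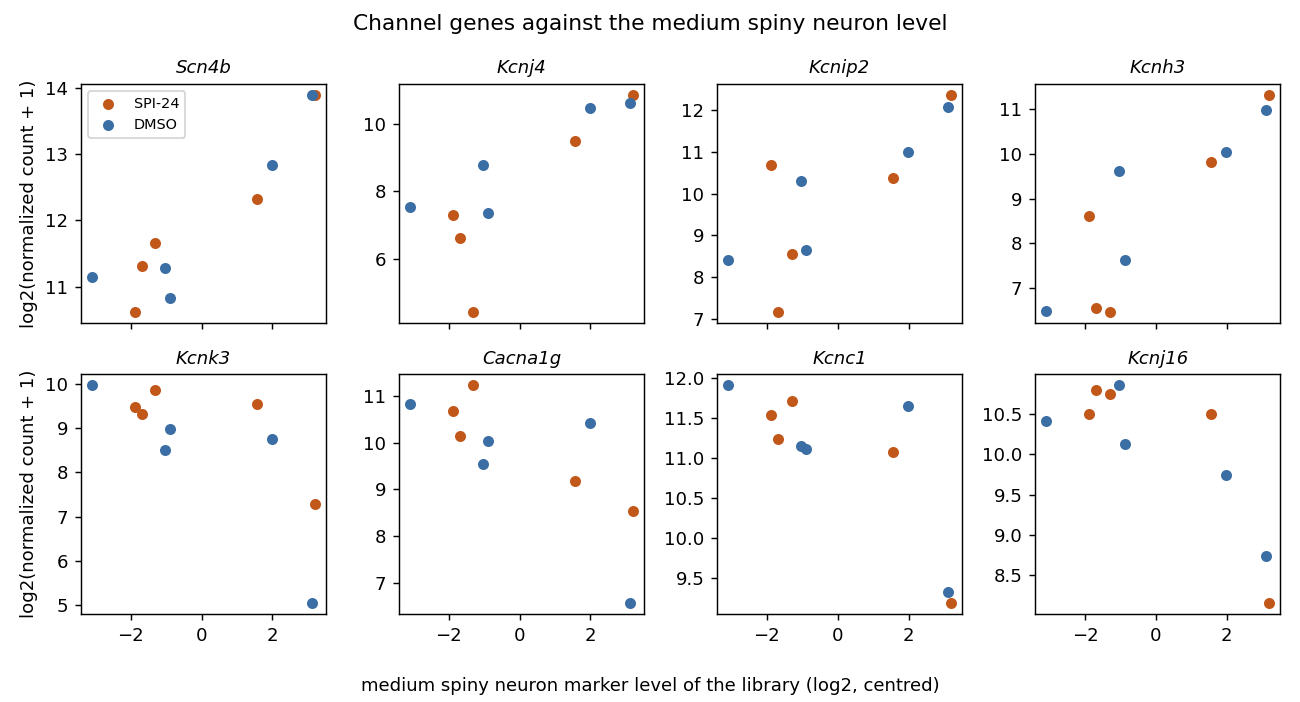
Log2(normalized count + 1) of 8 members (vertical axis) against the medium spiny neuron marker level of each library (horizontal axis), SPI-24 in orange and DMSO in blue. Scn4b, Kcnj4, Kcnip2 and Kcnh3 are highest, and Kcnk3, Cacna1g, Kcnc1 and Kcnj16 lowest, in SPI-24 replicate 5 (3.21) and DMSO replicate 1 (3.12), at the right of each panel.

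The 5 negative members were Kcnk3, Cacna1g, Kcnj16, Kcnc1 and Kcnh2. Their slopes were -0.49 (SE 0.12, limma adjusted p = 0.044) for Kcnk3, -0.46 (SE 0.11, limma adjusted p = 0.0337) for Cacna1g, -0.33 (SE 0.07, limma adjusted p = 0.0255) for Kcnj16, -0.33 (SE 0.08, limma adjusted p = 0.0337) for Kcnc1 and -0.25 (SE 0.05, limma adjusted p = 0.0233) for Kcnh2. Kcnc1 (Kv3.1, the other main channel of fast-spiking neurons) had 2407, 2158, 3339, 2966 and 582 in the SPI-24 libraries, against 639, 2209, 3831, 3198 and 2274 in the DMSO libraries. Only SPI-24 replicate 5 and DMSO replicate 1 stood far below the rest, and r of -0.77 over 10 libraries was -0.34 without them. Kcnj16 (Kir5.1, which pairs with Kir4.1 in astrocytes) had 1784, 1447, 1717, 1444 and 284 in the SPI-24 libraries, against 427, 1123, 1364, 854 and 1854 in the DMSO libraries, lowest in the same 2. Without them r for these 5 genes lay between -0.55 (Kcnh2) and -0.34 (Kcnc1), and permutation p for Spearman's rho over all 10 was 0.144 for Kcnh2 and 0.0600 for Kcnj16. The thalamic marker level was lowest in DMSO replicate 1 (-4.01) and next lowest in DMSO replicate 5 (-1.17), where Kcnj16 was highest (1854). The endothelial level was lowest in SPI-24 replicate 5 (-2.14). The part of either in these slopes was not tested.

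The promoter windows of 3 spiny neuron members whose transcripts moved together with the marker level are shown as reference sequence, so that their composition can be compared. They run from 250 bases before to 50 after the start site in RefSeq (GRCm38.p6), and 90 of the 123 members had a window. Capitals mark the GC box GGGCGG on either strand, and TATAAA and TGACGTCA were also searched on both strands. No 2 of the 3 motifs overlap in these windows, though copies of the GC box adjoin in Kcnj4.
Scn4b (chr9:45138374-45138673, + strand): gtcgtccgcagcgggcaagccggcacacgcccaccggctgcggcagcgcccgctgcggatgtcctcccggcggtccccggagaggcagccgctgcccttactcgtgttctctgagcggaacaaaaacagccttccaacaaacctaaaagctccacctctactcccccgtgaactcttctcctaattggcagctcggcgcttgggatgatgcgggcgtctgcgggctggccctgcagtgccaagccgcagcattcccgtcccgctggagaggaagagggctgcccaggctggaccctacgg
Kcnj4 (chr15:79505192-79505491, - strand): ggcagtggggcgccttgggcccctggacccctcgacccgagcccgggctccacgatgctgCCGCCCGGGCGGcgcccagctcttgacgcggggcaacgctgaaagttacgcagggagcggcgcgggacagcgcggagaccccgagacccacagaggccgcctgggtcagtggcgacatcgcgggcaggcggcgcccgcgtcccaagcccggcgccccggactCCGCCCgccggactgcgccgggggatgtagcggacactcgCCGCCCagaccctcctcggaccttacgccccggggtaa
Kcnip2 (chr19:45816014-45816313, - strand): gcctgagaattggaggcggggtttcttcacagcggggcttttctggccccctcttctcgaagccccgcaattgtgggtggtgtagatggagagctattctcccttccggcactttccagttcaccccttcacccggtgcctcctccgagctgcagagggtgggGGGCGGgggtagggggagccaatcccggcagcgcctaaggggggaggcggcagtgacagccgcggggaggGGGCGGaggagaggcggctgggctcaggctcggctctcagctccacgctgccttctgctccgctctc

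Their GC content was 66.3% for Scn4b, 76.0% for Kcnj4 and 67.0% for Kcnip2. The GC box occurred 4 times in the Kcnj4 window and 2 times in that of Kcnip2, and was not found in that of Scn4b. Over all members 48.4% of 126 windows held it, against 35.7% of all 32851 windows. Of the 18 windows of members called for a slope, 44.4% held it. TATAAA was in 4.76% of the members' windows, 11.1% of those of members called for a slope and 13.6% of all windows. TGACGTCA was in 0 of 126 member windows and 1.79% of all. These are matches of letters only.

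Members known from other cell types follow, with marker levels for some of those types. The interneuron marker level was highest in SPI-24 replicate 5 (1.36), where Kcnc1 was lowest. The cortical and hippocampal marker level was lowest in DMSO replicate 1 (-2.78), where Kcnv1 was highest and Kcnf1 lowest. The part of these levels in the members' values was not tested. In the thalamus and T-type list, Cacna1g was called for a slope, which was negative. Cacna1h and Cacna1i were not called, and their slopes were positive. These were 0.35 (SE 0.12, limma adjusted p = 0.142) for Cacna1h and 0.73 (SE 0.27, limma adjusted p = 0.174) for Cacna1i. Of 5 fast-spiking members (Kcnc1, Kcnc2, Kcna1, Kcns3 and Scn1a), 1 was called for a slope, Kcnc1, and treatment changes were Kcnc1 -0.08 (SE 0.49), Kcnc2 0.88 (SE 0.54), Kcna1 0.03 (SE 0.36), Kcns3 0.67 (SE 1.32) and Scn1a 0.47 (SE 0.43). Without SPI-24 replicate 5 the Kcnc1 change was 0.36, and without DMSO replicate 1 it was -0.51. Kcns3 was at 0 in DMSO replicate 1 alone, without which its change was -0.68, and Kcna1 (Kv1.1) spanned 205 to 882 in SPI-24 libraries and 405 to 756 in DMSO libraries. The cortical members Kcnv1 and Kcnf1 were at Kcnv1 0.25 (SE 1.58) and Kcnf1 0.43 (SE 0.44), or at 0.95 for Kcnv1 and 0.17 for Kcnf1 without DMSO replicate 1, and Kcnv1 was at -0.36 without SPI-24 replicate 5. Kcnv1 had 57.5, 122, 10.7, 168 and 505 in the SPI-24 libraries, against 545, 40.1, 0, 443 and 304 in the DMSO libraries, with 0 reads in DMSO replicate 3.

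Of the glial and vascular members, the astrocyte genes Kcnj10 and Kcnj16 are given above. The microglial THIK-1 gene Kcnk13 had 288, 501, 146, 207 and 406 in the SPI-24 libraries, against 103, 306, 185, 258 and 148 in the DMSO libraries, overlapping, at 0.60 (SE 0.48), or 0.39 without DMSO replicate 1, while the microglial marker level spanned -0.22 to 0.00 in SPI-24 libraries and -0.47 to 0.38 in DMSO libraries. Kcnk6 spanned 0 to 116 in SPI-24 libraries and 0 to 91.8 in DMSO libraries, at -0.01 (SE 1.66), and 0.45 without DMSO replicate 1. The vessel genes Kcnj8 (Kir6.1) and Kcnmb1 had libraries at 0 in both groups, with 0 to 166 in SPI-24 libraries and 0 to 97.5 in DMSO libraries for Kcnj8, and 0 to 52.6 in SPI-24 libraries and 0 to 30.2 in DMSO libraries for Kcnmb1.

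The choroid plexus members Kcne2 and Kcnj13 varied most of all. Kcne2 had 56.9, 498, 0, 0 and 335 in the SPI-24 libraries, against 708, 115, 191, 409.5 and 0 in the DMSO libraries, and Kcnj13 (Kir7.1) had 128, 99.6, 0, 0 and 72.4 in the SPI-24 libraries, against 399.6, 49.3, 0, 299 and 4.72 in the DMSO libraries. Both were highest in DMSO replicate 1, whose choroid plexus marker level was also the highest (2.96), and the level was 2.73 in DMSO replicate 4 and -2.97 in DMSO replicate 5. All 7 choroid plexus markers were tested, and the fluid-forming epithelium's transport protein gene Ttr spanned 1203 to 27127 in SPI-24 libraries and 292 to 181941 in DMSO libraries. The group changes of Kcne2 -1.88 (SE 2.10) and Kcnj13 -1.04 (SE 2.01) did not pass the test and were -1.14 for Kcne2 and -0.13 for Kcnj13 without DMSO replicate 1, and the part of choroid plexus content in them was not tested.

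Partner genes of the channels, 33 of them tested (pacemaker HCN channels, the NALCN complex, scaffolds, Kv4 and BK partners, FGF homologous factors and calmodulins), had 0 called, 2 at an unadjusted p under 0.05 and 21 above 0, with a median of 0.10. Of all genes, 0% were called and 2.23% had an unadjusted p under 0.05. The share above 0 was 63.6% of the partner genes and 50.2% of all genes. Hcn4, a slow pacemaker channel of thalamus and heart, had 499.6, 368, 874, 690.1 and 474 in the SPI-24 libraries, against 90.4, 489, 403, 269.6 and 101.0 in the DMSO libraries. DMSO replicates 1 and 5 were lowest, the groups overlapped, and the log2 fold change of 1.35 (SE 0.49, limma adjusted p = 0.999) ran from 1.03 to 1.64 when 1 library was left out. Without SPI-24 replicate 5 and DMSO replicate 1 together it was 1.09. The thalamic marker level was 0.99, 0.36, 1.42, 1.05 and -1.08 in the SPI-24 libraries, against -4.01, 0.53, 1.47, 0.44 and -1.17 in the DMSO libraries, lowest in the same DMSO replicates as Hcn4. All 8 thalamic markers had a log2 fold change above 0, between 0.07 for Lef1 and 1.83 for Prkcd, 0 of them passed the test, and Gbx2 was at 0 in DMSO replicate 1. Their part in the Hcn4 change was not tested.

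Fam155a, a subunit of the NALCN sodium leak channel, had 1473, 1447, 1583, 1687 and 1896 in the SPI-24 libraries, against 668, 1279, 1398, 1273 and 1128 in the DMSO libraries. All 5 SPI-24 libraries were above every DMSO library, and the log2 fold change of 0.53 (SE 0.21, limma adjusted p = 0.999) was 0.35 without DMSO replicate 1 and 0.29 without SPI-24 replicate 5 as well. Calm3, a calmodulin gene, was the other partner gene whose groups did not overlap, with 48381, 57825, 46944, 50955 and 51947 in the SPI-24 libraries, against 44344, 46705, 46573, 44111 and 43763 in the DMSO libraries, at 0.18 (SE 0.22). The groups thus did not overlap for 2 of 33 partner genes, against 0.517% of all genes. Nalcn itself spanned 942 to 1414 in SPI-24 libraries and 1179 to 1473 in DMSO libraries, at -0.09 (SE 0.17). Lrrc38, a BK partner, was at -2.81 (SE 1.52) on few reads, with -1.33 by edgeR and -1.39 by DESeq2, and Dpp6, a Kv4 partner, at 0.29 (SE 0.20), with 0.10 without DMSO replicate 1.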

How the data were processed

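The RNA of striatal punches was made into stranded mRNA libraries and sequenced from 1 end (50 bp). Per the study's methods, the authors removed adapters and poly-A/T with cutadapt, aligned to GRCm38 with STAR, dropped reads under 30 bp and multi-mapped reads, counted with HTSeq and scaled with DESeq2 (versions not given in the sources used here). Dropping multi-mapped reads lowers near-identical genes. The deposited values are a signal per gene and library, the count divided by a library size factor. The table's fold changes and p-values of the authors' own comparison were not used.

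Whole reads could be recovered, since 99.999% of the 154521 nonzero values fell within 0.1 read of a whole number. Genes with a mean of at least 10 normalized counts were tested by limma 3.58.1 with trend (R 4.3.3) on log2(normalized count + 1), a scale on which the change of a low gene depends on the added 1 and on libraries at 0, two-sided, with Benjamini-Hochberg adjustment over 15871 genes and a threshold of 0.05. edgeR 4.0.16 and DESeq2 1.42.0 on recovered reads, other filters and pseudocount, a replicate block, covariates and left-out libraries were alternatives. Correlations used 100000 permutations, two-sided. Limits for libraries at 0 (3 reads) cover counting error only.

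Coordinates and exon lengths are from GENCODE M21 (GRCm38), which held all 123 members. The members, marker lists and tests were chosen with earlier results of these data known. The named members were the 10 with the smallest p, the 2 highest per kb of exon in each role class, the members of the cell type lists, those without overlap, the 5 with the largest SD, the 5 largest slopes in each direction among those called, and the 4 partner genes with the smallest p. Members named beyond these (Cacng2, Cacng1, Cacng6, Scn2b, Kcnk2, Nalcn, Calm3, Kcnmb4os2 and those not tested) were added after their values were seen. Some members that the rule names are not reported here.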

Additional observations from a re-analysis of the deposited data

Results flagged for a closer look

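Among the named members and partner genes, 110 groups of 5 libraries were examined for 1 library whose gap to its nearest neighbour took over 0.71 of the whole range (Dixon). For normally distributed values the cut flags about 1 group in 20, a rate that need not hold for these counts, which were not logged. Some of the genes were also picked for a large SD or slope. In all, 10 groups were flagged. SPI-24 replicate 5 was the highest of its group for Cacna2d3 (2181 normalized counts, next 836), Scn4b (15128 normalized counts, next 5149), Kcnab1 (5257 normalized counts, next 2529), Kcnh4 (346 normalized counts, next 99.6), Cacna1h (1020.3 normalized counts, next 327). DMSO replicate 1 was the highest of its group for Cacna2d3 (2136 normalized counts, next 916), Kcnh4 (121 normalized counts, next 33.2). SPI-24 replicate 2 was the highest of its group for Kcnip3 (4596 normalized counts, next 3071). SPI-24 replicate 5 was the lowest of its group for Kcnj16 (284 normalized counts, next 1444). DMSO replicate 3 was the highest of its group for Lrrc38 (150.4 normalized counts, next 29.7). Of the 10, 6 are SPI-24 replicate 5 and 2 are DMSO replicate 1, the libraries of highest medium spiny neuron level. No cause was tested.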

How the results depend on the processing

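The count of members called for treatment was 0 under every alternative run. The count at an unadjusted p under 0.05, 3 in the reported fit, was 0 with limma without trend and with edgeR (TMM), 1 with edgeR on DESeq2 size factors, and 7 with the medium spiny neuron level or the Xist level as a covariate. It was 1 to 8 with 1 library left out: 8 without SPI-24 replicate 5, 6 without DMSO replicate 3, and 1 without DMSO replicate 1 or 5. The share of all genes at that threshold moved as well, from 2.23% in the reported fit. It was 3.14% without SPI-24 replicate 5, 3.55% without DMSO replicate 3, 1.85% without DMSO replicate 1 and 2.43% without DMSO replicate 5. With the medium spiny neuron level as a covariate it was 3.33%, with the Xist level 2.64%, and with limma without trend 2.87%. The members' median log2 fold change was -0.04 to 0.18, and 54 to 73 members were above 0, with 1 library left out. edgeR and DESeq2 gave medians of 0.02 to 0.03 and 60 members above 0. Leaving out 2 libraries was chosen after seeing the data. The counts at an unadjusted p under 0.05 were 4 without SPI-24 replicate 5 and DMSO replicate 1 (2.64% of all genes). They were 3 without SPI-24 replicate 2 and DMSO replicate 3 (3.49% of all genes).

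The count of members called for a slope, 13 in the reported fit, was 1 with limma without trend, 0 without the 2 libraries farthest in medium spiny neuron level, 4 without the 2 with the fewest reads (chosen after seeing the data), and 2 to 20 with 1 library left out (8 without SPI-24 replicate 2, 6 without SPI-24 replicate 3, 7 without DMSO replicate 3, 20 without DMSO replicate 4). The share of all genes called for a slope was 2.39% in the reported fit. With 1 library left out that share ran from 0.42% without SPI-24 replicate 5 to 3.51% without DMSO replicate 4. It was 1.695% without SPI-24 replicate 2, 1.178% without SPI-24 replicate 3 and 1.367% without DMSO replicate 3. With limma without trend it was 0.397%, without the 2 libraries farthest in medium spiny neuron level 0.0063%, and without the 2 with the fewest reads 1.437%. The cause of these differences was not tested. Of 55 named genes, 29 kept the sign of the group difference under every alternative and 26 did not, and none of the 55 was called under any.

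The replicate numbers did not pair the libraries: the correlation of same-numbered libraries' deviations was -0.13 to -0.01, and 0 of 5 libraries correlated best with their own number. With the replicate number as a block, 0 members were called and 5 had an unadjusted p under 0.05, against 1.99% of all genes.

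Depth limits the low members: 1 read was worth 0.363 to 3.42 normalized counts, and 37 of the 114 tested members had a library with no reads.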
